A study of Mus musculus with 20 samples.

Results

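The respiratory chain subunits that are encoded in the nucleus were described in TRAP–seq libraries of epididymal adipose tissue (epiAT), by complex, in 8 diet groups. Members were the protein-coding genes whose symbols mark them as subunits of complex I (Nduf genes), complex II (Sdha to Sdhd), complex III (Uqcr genes), complex IV (Cox4 to Cox8 genes) or complex V (Atp5 genes), leaving out Cox7a1 and Cox8b. Of the 46078 genes of the counts table, 82 were members, with 37 in complex I, 4 in complex II, 8 in complex III, 16 in complex IV and 17 in complex V. All 82 were among the 21464 genes that passed the filter on low counts. Some members that carry such symbols are not fixed parts of the complex they are named for, since Ndufa4 is now placed in complex IV, Atp5s acts as a coupling factor, and Cox7a2l helps to join complexes into supercomplexes. They were kept under their symbols.

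Complexes I and II pass electrons from NADH and succinate to coenzyme Q, complex III hands them to cytochrome c, and complex IV gives them to oxygen. Complexes I, III and IV pump protons, and the ATP synthase, complex V, lets the protons back to make ATP. All subunits of complex II and most subunits of the others are nuclear genes, whereas a small core of complexes I, III, IV and V is encoded in mitochondrial DNA. In white adipocytes the chain supplies the ATP and the oxidized cofactors that lipid synthesis and the turnover of fatty acids need.

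The animals were male AdipoERCre x NuTRAP mice on a C57BL/N background by the study's methods (C576BL6 in the labels), all of them given tamoxifen by gavage at 4–5 weeks of age. Cre recombinase, driven by the adiponectin promoter, induces a ribosomal protein with a GFP tag in adipocytes, and ribosome-bound mRNA was pulled down through that tag from lysates of frozen epiAT. Each library came from 1 mouse. Mice were fed chow until 18 weeks of age (C, n = 3) or a high-fat diet (HFD) for 12 weeks to the same age (H, n = 3). After 12 weeks of HFD, HC mice (n = 3) returned to chow for 8 weeks and were 26 weeks old, as were their chow controls CC_s (n = 3). In the long arm, HH mice (n = 2) had 25 weeks of HFD and were 31 weeks old, with CC_l chow controls (n = 2). HHC mice (n = 2) had 25 weeks of HFD and then 8 weeks of chow for weight loss (WL), were 39 weeks old, and were compared with CCC chow controls (n = 2). The pulldown is not a sort of pure cells, and in such bulk libraries fewer adipocytes and less mRNA per adipocyte cannot be told apart.

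The libraries held 10710277 to 36738954 counts on genes. The 8 adipocyte markers (Adipoq, Plin1, Cidec, Fabp4, Lep, Retn, Pnpla2 and Lipe) summed to 15074 to 100045 CPM (counts scaled to a common library size) and so were abundant in every library. In 4 libraries, C 1, C 2, HC 3 and CCC 2, 5 nuclear-retained RNAs led by Malat1 summed to 27061 to 43587 CPM, against 2208 to 13819 CPM in the other 16. The same 4 held the lowest adipocyte marker sums (15074 to 23902 CPM) and high shares of mitochondrially encoded RNA (11.2% to 23.0% of counts against 1.32% to 11.9%). They stood apart for the members too: the 82 genes made up 0.961% to 1.61% of their counts, against 1.60% to 6.42% (median 4.42%) in the other 16. Results are therefore given with all libraries and, chosen after seeing the data, without these 4, which leaves 1 mouse in C and in CCC that is assumed to vary like the other groups. A fit with the nuclear-retained RNA as a covariate, also chosen after seeing the data, was run as well.

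**Figure D1:**
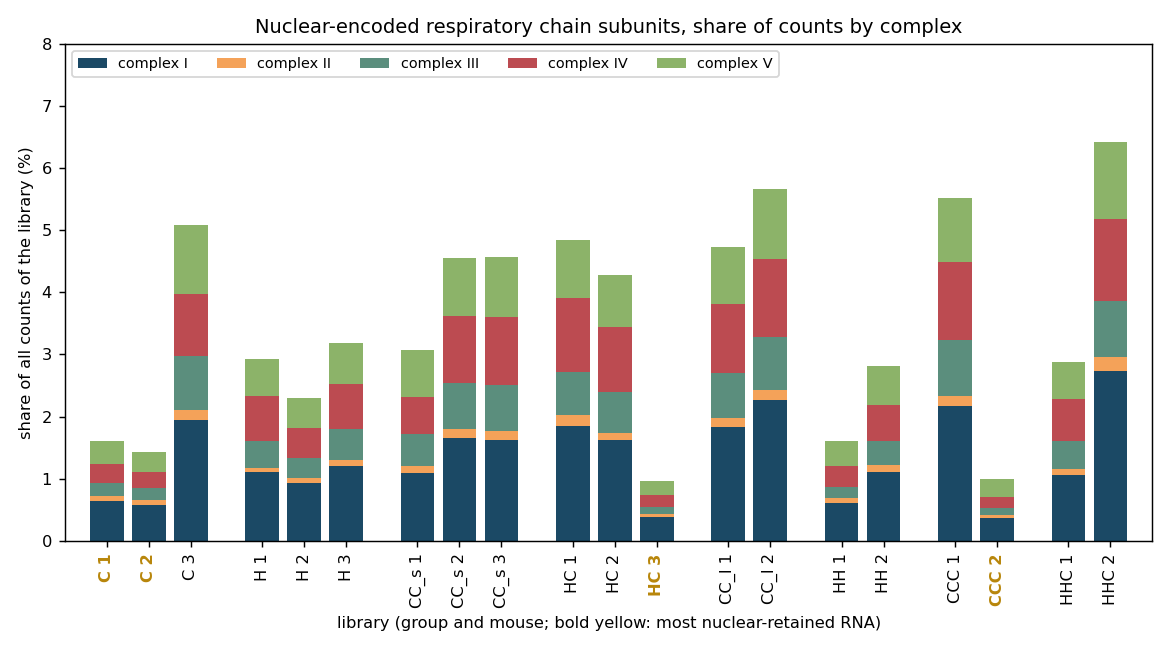
Share of all counts (%, y axis) taken by the members of complexes I to V (stacked colours) in each of the 20 libraries (x axis). C 1, C 2, HC 3, CCC 2 and HH 1 hold the shortest bars, at 1.61% or less. H 2 (2.30%) and HH 2 (2.81%) follow, and HHC 2 holds the tallest at 6.42%.

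By group, the members took 1.61%, 1.43% and 5.08% of counts in C and 2.93%, 2.30% and 3.18% in H, so that H lay between the C mice. In CC_s they took 3.07%, 4.56% and 4.58%, and in HC 4.85%, 4.27% and 0.961%, with only HC 3 outside the CC_s range on the low side. In the long arm the shares were 4.73% and 5.66% in CC_l and 1.60% and 2.81% in HH, which did not overlap. CCC mice had 5.53% and 0.990% and HHC mice 2.88% and 6.42%, which overlapped across nearly the whole range of the study. The plot of shares by complex shows low or high levels of all 5 complexes in the same libraries. Complex I was the largest part in every group, with 2.05% ± 0.306 (SD, n = 2) of counts in CC_l and 0.857% ± 0.357 (SD, n = 2) in HH. Complex II, the smallest, held 0.148% ± 0.0145 (SD, n = 2) in CC_l and 0.0926% ± 0.0169 (SD, n = 2) in HH. Complex III went from 0.791% to 0.289% between the same groups, complex IV from 1.18% to 0.457%, and complex V from 1.03% to 0.508%.

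Levels per kilobase of exon, averaged over the 20 libraries, ranked small accessory subunits first. The length used is that of all annotated exons of a gene together, which can exceed the length of its mRNA, so the order depends on the annotation. Ndufa2 led complex I and all members at 2522 CPM per kb, followed in its complex by Ndufa1 at 1189 CPM per kb. In complex III, Uqcr11 stood at 2205 CPM per kb and Uqcr10 at 1879 CPM per kb. Both are small subunits without a redox centre. In complex IV, Cox8a (2075 CPM per kb) and Cox6a1 (1644 CPM per kb) were highest, and in complex V Atp5k (992 CPM per kb) and Atp5g3 (404 CPM per kb), which encodes the c subunit of the rotating ring. In complex II the levels were lower, with 216 CPM per kb for the membrane anchor Sdhd and 140 CPM per kb for the iron–sulfur subunit Sdhb. By mean CPM, not divided by length, Cox4i1 (1608 CPM) led all members. Atp5b (1007 CPM) then led complex V and Sdha (465 CPM) complex II. At or near the other end stood 6 alternative isoforms of limited tissue range. Cox6a2 was at 1.52 CPM per kb, Cox7b2 at 2.44 and Cox6b2 at 4.56. Ndufa4l2 was at 7.87, Cox4i2 at 8.82 and Cox8c at 13.2 CPM per kb. Of the other members, Atp5s (7.85 CPM per kb) and Ndufb2 (10.7 CPM per kb) lay among them. The 6 alternative isoforms are treated apart because their levels did not follow those of the other 76.

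The promoters are shown here because the members are known targets of the nuclear respiratory factors, NRF1 and the ETS-family factor NRF2 (GABP). Sequences are RefSeq's on GRCm38.p6, the 250 bases before the annotated start, 5′ to 3′ on the strand of the gene, with matches to GCGCANGCGC (NRF1 type) or CCGGAAG (ETS type), on either strand, in capitals. Sdha is the flavoprotein of complex II (chr13:74350241-74350490, minus strand), Cox6a1 the ubiquitous form of a complex IV subunit (chr5:115348959-115349208, minus strand), and Cox6b2 a form of another complex IV subunit known from testis (chr7:4753095-4753344, minus strand).
Sdha: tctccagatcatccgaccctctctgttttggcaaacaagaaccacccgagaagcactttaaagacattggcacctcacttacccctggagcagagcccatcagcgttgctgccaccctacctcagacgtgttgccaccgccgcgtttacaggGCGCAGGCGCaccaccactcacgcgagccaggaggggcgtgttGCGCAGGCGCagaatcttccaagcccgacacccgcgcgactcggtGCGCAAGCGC
Cox6a1: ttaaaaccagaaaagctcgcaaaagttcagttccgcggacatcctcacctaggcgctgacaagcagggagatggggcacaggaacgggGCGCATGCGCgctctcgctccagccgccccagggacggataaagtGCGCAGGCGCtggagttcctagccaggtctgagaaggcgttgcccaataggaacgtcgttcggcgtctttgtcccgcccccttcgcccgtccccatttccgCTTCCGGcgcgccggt
Cox6b2: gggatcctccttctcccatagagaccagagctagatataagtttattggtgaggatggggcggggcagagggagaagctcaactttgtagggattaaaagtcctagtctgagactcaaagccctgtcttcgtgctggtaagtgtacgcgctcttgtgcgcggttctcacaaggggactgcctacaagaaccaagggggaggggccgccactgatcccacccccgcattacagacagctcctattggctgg
The Sdha stretch holds the NRF1-type letters 3 times, that of Cox6a1 holds both types, and that of Cox6b2 holds neither. These stretches are examples. Members other than the alternative isoforms, such as Cox5a, Cox5b and Uqcr10, also hold neither type. Of 69 windows of 300 bases for 64 of the 82 members, 26.1% held GCGCANGCGC, against 4.60% of all 32851 windows in the table. CCGGAAG was in 23.2% of the member windows and 8.86% of all windows, and CCAAT, searched on either strand as well, in 42.0% and 37.4%. A window with several matches was counted once. A match describes letters, not a bound site, and its relation to the members' levels was not tested.

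The 76 members other than the 6 alternative isoforms shared much of their spread from library to library. Across the 20 libraries, the SD of log2 CPM of one of these members was 0.55 to 1.55 (median 1.05). When the mean log2 CPM of the 76 in each library was subtracted, the SD had a median of 0.35 (0.17 to 0.81), and it was smaller than before for 75 of the 76. Ndufa6 (SD 0.17 after subtraction), a small complex I subunit, and Atp5h (0.18), part of the peripheral stalk of the ATP synthase, followed the common level most closely. The exception was Ndufs1, the largest core subunit of complex I, whose SD was 0.55 before and 0.68 after subtraction. The common level was lowest in the 4 libraries that stand apart and in HH 1, followed by H 2, HHC 1, H 1 and HH 2, so this spread describes all libraries together and not one diet. For the 6 alternative isoforms, the SD was 1.40 to 2.80 before and 1.70 to 3.22 after subtraction. These 6 were set apart for not following the others, and the subtracted level is the mean of the 76 themselves. The subtraction was not run for other genes, so how closely they follow this level was not tested.

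After 12 weeks of HFD, none of the 76 was a DEG (edgeR's quasi-likelihood test, nominal p below 0.01 with a log2 fold change of 1 or more in either direction), and the 3 DEGs among the members were alternative isoforms that rose, Ndufa4l2, Cox4i2 and Cox6a2. Among all tested genes, 3.57% were DEGs up and 2.92% DEGs down in H. The median log2 fold change of the 82 members was -0.25 against -0.15 for all tested genes, with 55 of 82 below 0 against 56% of all genes. At an adjusted p under 0.05 there were 2 members, Ndufa4l2 and Cox4i2, against 2.12% of all genes. Only Ndufs1, Sdhb and Cox6b2 were lower in each H mouse than in each C mouse (3 of 82, against 11.8% of all genes), and 5 of 82 members had a nominal p under 0.05, against 17.1% of all genes. With scaling by library size alone the median of the members was 0.08 and that of all genes 0. By complex, the medians were -0.14 (I), -0.46 (II), -0.34 (III), -0.08 (IV) and -0.27 (V).

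**Figure D2:**
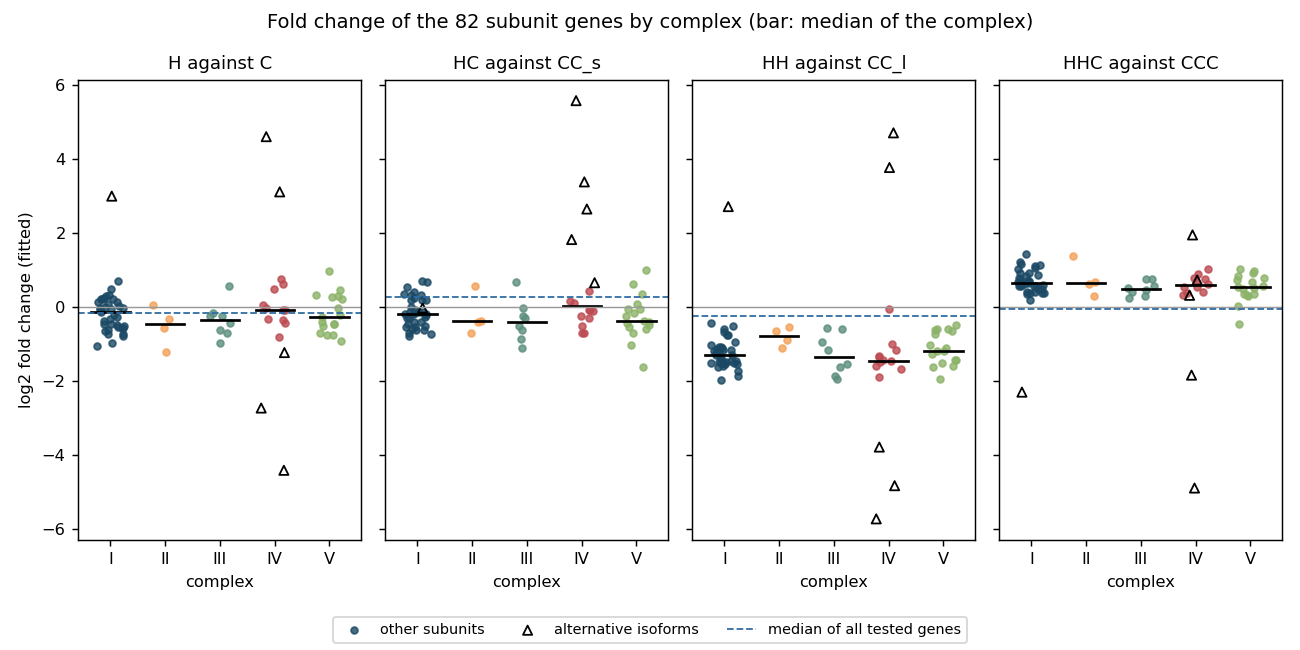
Fitted log2 fold change (y axis) of each member in the 4 comparisons (panels) by complex (x axis), with the 6 alternative isoforms as open triangles, a black bar at the median of each complex and a dashed line at the median of all tested genes. In HH against CC_l the 5 complex medians lie between -0.77 and -1.45, and in HHC against CCC between 0.49 and 0.65.

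The levels of catalytic subunits in single mice show the spread within C. For Ndufs1, the largest iron–sulfur subunit of complex I, the H mice had 81.5, 69.4 and 99.4 CPM (here and below scaled by TMM) and the C mice 109, 103 and 280 CPM. All H mice were below all C mice, with a log2 fold change of -0.97 ± 0.41 (SE) and an adjusted p of 0.236. Sdha stood at 215, 203 and 315 CPM in H and at 329, 293 and 1093 CPM in C, with 1 H mouse inside the C range (log2 fold change -1.23 ± 0.57, adjusted p = 0.281). For both genes, C 3 was far above C 1 and C 2, the libraries rich in nuclear-retained RNA. Uqcrfs1, the Rieske iron–sulfur protein of complex III, had 159, 111 and 216 CPM in H and 127, 116 and 718 CPM in C. Only C 3 was above all H mice, and H 1 and H 3 were above C 1 and C 2. Its log2 fold change of -0.99 ± 0.71 (adjusted p = 0.502) did not pass the test. Ndufv1, the NADH-binding core subunit, had a log2 fold change of 0.22 ± 0.59, and Uqcrc1, a core protein of complex III, one of 0.56 ± 0.64.

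Without C 1, C 2, HC 3 and CCC 2, the same comparison read differently. The median of the members became -1.06 (all tested genes 0.29), 76 of 82 were below 0, and 23 members were DEGs down and 3 DEGs up, where 4.29% of all genes were DEGs down. The 5 with an adjusted p under 0.05, where 2.79% of all genes passed, were Uqcrfs1 (log2 fold change -2.04 ± 0.37), Sdha (-2.05 ± 0.37), Ndufs1 (-1.64 ± 0.32), Atp5f1 of the peripheral stalk (-1.72 ± 0.36) and Ndufa5, an accessory subunit (-2.03 ± 0.46). These values set 3 H mice against the single mouse C 3. That mouse had the highest adipocyte marker sum of all libraries, 100045 CPM against 35668 to 60171 CPM in H, and a macrophage marker sum of 118 CPM against 456 to 3268 CPM in H. The part of these markers in the members' values was not tested. Leaving out C 3 instead, with C 1 and C 2 kept, turned the median of the members to 0.93. The direction of the members in H thus rested on which chow mice were kept.

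After 25 weeks of HFD, nearly all members stood lower in HH than in CC_l, but none of the 76 was a DEG. The median log2 fold change was -1.28, against -0.23 for all tested genes, and 79 of 82 members were below 0, against 57.3% of all genes. In 75 of 82, both HH mice were below both CC_l mice, against 28.9% of all tested genes, and among the 76 this held for 74, the other 2 being Ndufa8 and Cox7a2l. Cox7a2l had 116 and 177 CPM in HH and 133 and 173 CPM in CC_l. The DEGs were Cox4i2 and Ndufa4l2, up, and Cox6b2, down, where 4.92% of all tested genes were DEGs up and 1.88% DEGs down. No member had an adjusted p under 0.05 in this fit (2.07% of all genes did). A nominal p under 0.05 was found for 4 of 82, all alternative isoforms, against 17.4% of all genes. With the nuclear-retained RNA as a covariate, 41 members had an adjusted p under 0.05, against 13.1% of all genes. DESeq2 called 4 members by the DEG rule, 3 up and 1 down, where it called 6.65% of all genes up and 4.33% down. With 1 HH mouse left out, the edgeR median of the members was -0.93 without HH 1 and -1.75 without HH 2.

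The levels per mouse show how large the difference was. Ndufa5 stood at 101 and 190 CPM in HH and at 471 and 676 CPM in CC_l, a log2 fold change of -1.98 ± 0.97 (adjusted p = 0.299). Uqcr11 had the same order, with 288 and 856 CPM in HH against 1858 and 2539 CPM in CC_l (log2 fold change -1.94 ± 1.27). Cox8a had 359 and 854 CPM in HH and 2068 and 2451 CPM in CC_l. In these genes HH 1 was the lower of the HH mice. Atp5k, an accessory subunit of the ATP synthase, had 113 and 342 CPM in HH and 723 and 1022 CPM in CC_l. Among the 7 core subunits of complex I the log2 fold changes ran from -0.51 ± 0.50 for Ndufs1 to -1.37 ± 0.81 for Ndufs7, which carries an iron–sulfur cluster. Sdha had -0.64 ± 0.69 and Uqcrfs1 -0.95 ± 0.87. By role, the median was -1.45 for the 52 subunits grouped as accessory, which here include the complex III core proteins Uqcrc1 and Uqcrc2, -1.09 for 7 core subunits of complex I and -1.18 for 5 subunits of the F1 head of the ATP synthase. The difference between roles was not tested.

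Neither HH nor CC_l holds one of the 4 libraries that stand apart, and leaving those out elsewhere kept the median at -1.28 with smaller errors. In that fit 25 members were DEGs down and 2 up (4.76% of all genes were DEGs down and 6.08% DEGs up), and 6 had an adjusted p under 0.05 (6.24% of all genes). They were Ndufa5 (log2 fold change -1.99 ± 0.45, adjusted p = 0.0235), Ndufs6 (-1.60 ± 0.44), Ndufb7 (-1.48 ± 0.41) and Atp5d (-1.54 ± 0.43), besides Cox4i2 and Cox6b2. Ndufs6 and Ndufb7 are accessory subunits of complex I, and Atp5d belongs to the central stalk of the ATP synthase. Fitting only the HH and CC_l mice gave 6 members down and 1 up, with 2.53% of all genes down and 8.19% up. Adipocyte markers moved in the same direction, with 7 of 8 below 0 in HH (median -1.43) and sums of 27927 and 34872 CPM in HH against 63289 and 59858 CPM in CC_l. All 8 macrophage markers were above 0 (median 3.67), with sums of 2959 and 3984 CPM in HH and 182 and 329 CPM in CC_l. The part of these shifts in the members' values was not tested.

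After WL from the short obesity, 1 member was a DEG and the mice of both groups overlapped for most members. In HC against CC_s the median log2 fold change was -0.19 (all tested genes 0.27) with 57 of 82 below 0, against 35.5% of all genes. Cox6b2, up, was the only DEG, while 1.57% of all tested genes were DEGs up and 0.172% DEGs down. In 9 of 82 members each HC mouse was below each CC_s mouse, against 5.82% of all tested genes. They were Atp5g3, Ndufs1, Atp5f1, Uqcrh, Sdha, Uqcrfs1, Ndufc2, Ndufb5 and Ndufa5. Ndufs1 had 144, 134 and 68.3 CPM in HC and 234, 172 and 171 CPM in CC_s (log2 fold change -0.74 ± 0.41, adjusted p = 0.604). Sdha had 610, 463 and 163 CPM in HC and 632, 681 and 700 CPM in CC_s (-0.70 ± 0.56, adjusted p = 0.74). In each of these genes HC 3, rich in nuclear-retained RNA, was the lowest. Without HC 3 and the other 3 such libraries the median was 0.21, no member was a DEG and 28 of 82 were below 0.

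After WL from the long obesity, the values leaned the other way but with wide errors. In HHC against CCC, 78 of 82 members were above 0, with a median of 0.62 against -0.06 for all tested genes. Of all tested genes, 52.1% were below 0. No member was a DEG (0.447% of all tested genes were DEGs up and 2.67% DEGs down), and 1 had a nominal p under 0.05, Ndufa4l2, against 10.7% of all genes. DESeq2 called none either. Sdhb had 106 and 1187 CPM in HHC and 404 and 96.8 CPM in CCC, so that the mice of both groups lay on both sides of each other (log2 fold change 1.37 ± 0.94, adjusted p = 0.626). Ndufb2, an accessory subunit of complex I, had 20.9 and 216 CPM in HHC and 68.7 and 19.7 CPM in CCC (1.42 ± 0.92). Cox7a2l, with 205 and 211 CPM in HHC and 184 and 40.6 CPM in CCC, was the only member higher in both HHC mice, against 8.49% of all genes. Ndufa4l2 was the only one lower in both, where 20.3% of all tested genes were. Leaving out CCC 2 and the other 3 libraries brought the median to -0.08 with 52 of 82 below 0, leaving out CCC 1 raised it to 2.69, and leaving out HHC 2 gave -0.41.

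Whether the effect of HFD and that after WL differed was tested as an interaction. No member passed an adjusted p of 0.05 for H against HC, as for 0% of all genes, and 4 of 82 had a nominal p under 0.05 against 11.8% of all genes. For HH against HHC again no member passed, where 0.815% of all tested genes did, and 3 of 82 had a nominal p under 0.05 against 15.5%. The median difference of effects over the members was -0.07 in the short arm and -1.94 in the long arm. There 78 of 82 lay below 0, against 50.2% of all genes. Both medians moved with single mice. The short-arm median was -1.29 without the 4 libraries and 1.01 without C 3. The long-arm median was -1.21 without the 4 libraries, -1.11 without CCC 2, -0.80 without HHC 2 and -4.02 without CCC 1. The lowest adjusted p were those of Ndufa4l2, whose effects differed by a log2 value of 5.02 ± 1.17 (adjusted p = 0.0549), and of Cox4i2 (5.62 ± 1.38, adjusted p = 0.0665). In the long arm 2 members passed with the likelihood ratio test (4.48% of all genes) and 3 with DESeq2 (5.78% of all genes), while neither tool passed a member in the short arm.

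Cox4i2 and Ndufa4l2 rose with HFD in both arms, while with all libraries their ubiquitous partners Cox4i1 and Ndufa4 were no DEGs. Without the 4 libraries that stand apart, both partners were DEGs down in H (log2 fold change -1.30 ± 0.43 for Cox4i1 and -1.74 ± 0.56 for Ndufa4). Cox4i2 encodes the isoform of COX4 known from lung and from low oxygen, and Ndufa4l2 a paralogue of Ndufa4 known as a target of hypoxia-inducible factors. Cox4i2 lies at chr2:152754173-152765037 and Ndufa4l2 at chr10:127514967-127517154 (mm10). Cox4i2 stood at 17.3, 18.9 and 19.2 CPM in H and at 2.40, 3.27 and 0.716 CPM in C. All H mice were above all C mice, with a log2 fold change of 3.12 ± 0.79 (adjusted p = 0.0497). In HH it stood at 35.8 and 10.99 CPM against 1.83 and 1.57 CPM in CC_l (3.77 ± 1.00, adjusted p = 0.0584). After WL it was at 2.10, 4.50 and 4.76 CPM in HC and 1.68 and 0.215 CPM in HHC, within or below the values of the chow mice of the same age except that HC 3 passed all CC_s mice. Ndufa4l2 stood at 26.2, 19.5 and 21.2 CPM in H against 2.94, 3.47 and 1.93 CPM in C (3.00 ± 0.68, adjusted p = 0.03). Neither gene kept an adjusted p under 0.05 in H when any 1 C or H mouse was left out. Without the 4 libraries both genes were still DEGs up in H, but the adjusted p was 0.0694 for Cox4i2 and 0.0806 for Ndufa4l2. In HH Ndufa4l2 stood at 41.9 and 10.3 CPM against 6.16 and 1.70 CPM in CC_l (2.72 ± 0.82, adjusted p = 0.0975). The long-arm calls of both genes were lost without HH 1, where the log2 fold changes were 2.70 for Cox4i2 and 1.40 for Ndufa4l2, and without CC_l 2 (3.70 and 2.11). In HHC, Ndufa4l2 was at 1.01 and 0.754 CPM, below the 2.51 and 6.15 CPM of CCC (-2.30 ± 0.84, adjusted p = 0.345).

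**Figure D3:**
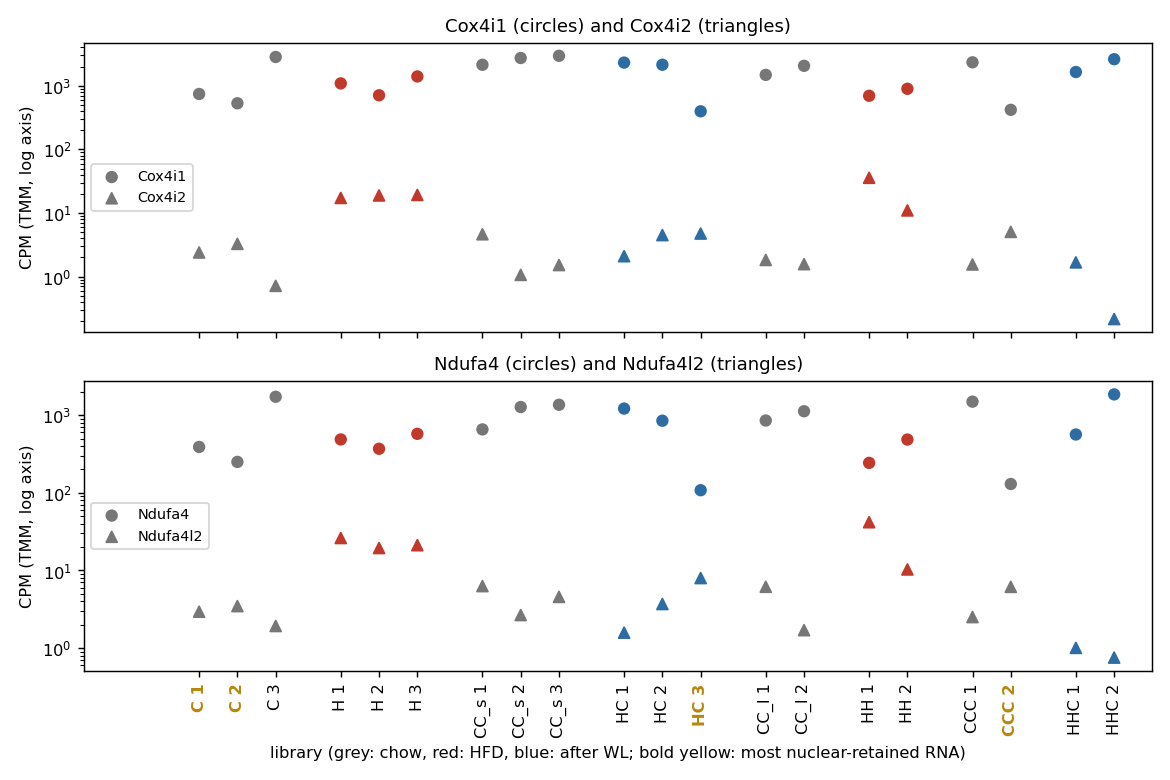
CPM (log axis) of Cox4i1 and Cox4i2 (top) and of Ndufa4 and Ndufa4l2 (bottom) in each library, circles for the ubiquitous gene and triangles for its paralogue, with chow libraries in grey, HFD in red and after WL in blue. The 5 HFD libraries hold the highest triangles in both panels, at 10.99 CPM or more for Cox4i2 and 10.3 CPM or more for Ndufa4l2.

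The plot of both pairs shows the partners side by side. In H, Cox4i1 stood at 1091, 709.6 and 1402 CPM, inside the range of the C mice at 743, 531 and 2836 CPM, and in HH at 697 and 898 CPM, below the 1484 and 2061 CPM of CC_l. Per 1000 counts of Cox4i1 there were 15.8, 26.6 and 13.7 of Cox4i2 in H and 3.22, 6.17 and 0.253 in C. The ratio was 10.5-fold higher in H (two-sided exact permutation p = 0.1, the lowest possible with 3 against 3 mice, adjusted p = 0.4 over 12 such tests). In HH it was 51.4 and 12.2 per 1000 against 1.23 and 0.763 in CC_l (25.9-fold, exact p = 0.333, the smallest that 2 against 2 mice allow). For Ndufa4l2 per 1000 counts of Ndufa4, the values were 53.7, 52.6 and 36.7 in H against 7.53, 13.9 and 1.11 in C, and 172 and 21.2 in HH against 7.20 and 1.51 in CC_l. High ratios also occurred outside HFD, in HC 3 and CCC 2, where both ubiquitous genes were low. They had 12.0 and 12.1 of Cox4i2 per 1000 of Cox4i1, close to HH 2. For Ndufa4l2 per 1000 of Ndufa4 they had 73.8 and 47.3, so that HC 3 lay above all H mice and both lay above HH 2. Ndufa4l2 overlaps Shmt2 on the opposite strand, and whether the counting used strand is not given in the sources used here. Shmt2 stood at 15.8, 15.9 and 17.1 CPM in H against 19.5, 8.34 and 8.42 CPM in C.

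Markers of vessel cells were read beside these 2 genes. Of 4 endothelial markers (Pecam1, Cdh5, Kdr and Vwf), 4 were above 0 in H (median 1.88) and 4 in HH (median 2.73). Their sum was 1006 to 1576 CPM in H against 149 to 554 CPM in C, and 1196 and 659 CPM in HH against 128 and 117 CPM in CC_l. Of 10 markers of mural cells (pericytes and smooth muscle), a list made after the values of Cox4i2 and Ndufa4l2 were seen, 7 were above 0 in H (median 1.37) and 10 in HH (median 2.23). The mural sum was 1561 to 1800 CPM in H and 204 to 1788 CPM in C, and 1546 and 958 CPM in HH against 250 and 206 CPM in CC_l. The sum of 1788 CPM was that of C 1, where Cox4i2 stood at 2.40 CPM and Ndufa4l2 at 2.94 CPM. In HHC the endothelial median was -1.95 and the mural median -1.13. The pericyte marker Kcnj8, named after its values were seen, had 121 and 50.0 CPM in HH and 6.83 and 7.60 CPM in CC_l. Both HH mice were above both CC_l mice, as for Cox4i2 and for 5651 of the 21464 tested genes. What part of the rise of Cox4i2 and Ndufa4l2 goes with these cells was not tested.

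Cox6a2, the muscle form of a complex IV subunit, also rose in H. It stood at 2.05, 5.49 and 0.576 CPM in H and at 0.327, 0 and 0 CPM in C, where the limit of 3 counts lies between 0.103 and 0.175 CPM of total counts. Its fitted log2 fold change of 4.61 ± 1.55 (adjusted p = 0.134) rests on few counts, and the call was lost when C 2, C 3, H 1 or H 2 was left out (3.56 to 4.77). Cox6a2 lies at chr7:128205435-128206387, within the bounds of Itgad on the opposite strand, a leukocyte integrin gene. Itgad stood at 1.98, 6.47 and 0.576 CPM in H and at 0.218, 0 and 0 CPM in C. The close match of both genes in each of these mice makes the Cox6a2 counts uncertain.

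Cox6b2, Cox8c and Cox7b2, forms known from testis, were high in single libraries. Cox6b2 stood at 43.3 CPM in CC_l 1 and 13.3 CPM in HC 3, and at 0.634 to 8.29 CPM in the other 18. Cox8c had 82.3 CPM in CC_l 1 and 29.6 CPM in HC 3, and Cox7b2 20.9 and 2.88 CPM. The same libraries held the most counts of 6 spermatid markers (Tnp1, Tnp2, Prm1, Prm2, Ldhc and Odf1), with sums of 3622 CPM in CC_l 1 and 674 CPM in HC 3 against at most 132 CPM elsewhere. The calls of Cox6b2 follow these libraries. In HH against CC_l its log2 fold change was -3.79 ± 1.16 with all mice and -0.95 without CC_l 1, and in HC against CC_s it was 2.65 ± 0.91 with all mice and 1.35 without HC 3. Neither remained a DEG without that library.

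**Figure D4:**
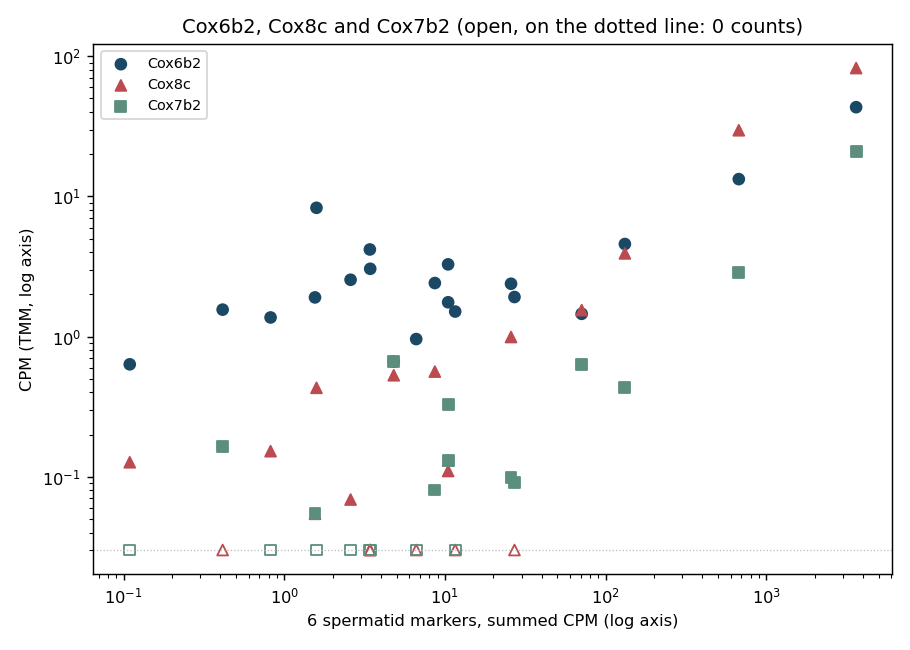
CPM (log axis) of Cox6b2, Cox8c and Cox7b2 against the summed CPM of 6 spermatid markers (log axis), 1 point per gene and library, with open symbols on the dotted line for 0 counts. CC_l 1 and HC 3, the libraries farthest to the right, hold the highest values of Cox6b2 (43.3 and 13.3 CPM) and of Cox8c (82.3 and 29.6 CPM).

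The c ring of the ATP synthase is made of one protein encoded by 3 genes, Atp5g1, Atp5g2 and Atp5g3, which differ in their targeting sequences. Atp5g3 was by far the highest at 404 CPM per kb, with 25.3 for Atp5g2 and 13.8 for Atp5g1, and Atp5g1 and Atp5g3 were, with Cox8a, the members of the 76 that followed the common level least (SD 0.81 and 0.73 after subtraction). In CC_s, Atp5g3 stood at 2425, 1652 and 1621 CPM and Atp5g1 at 24.1, 51.9 and 38.0 CPM. In HC, Atp5g3 was lower in each mouse, at 669, 1004 and 192 CPM (log2 fold change -1.61 ± 0.79, adjusted p = 0.577), while Atp5g1 stood at 154, 54.7 and 18.5 CPM (0.99 ± 0.70). Per 1000 counts of Atp5g3, there were 230, 54.5 and 96.7 of Atp5g1 in HC and 9.94, 31.4 and 23.4 in CC_s. The groups did not overlap, the ratio was 5.49-fold higher in HC, and the exact two-sided p of 0.1 is the smallest these groups allow (adjusted p = 0.4). In HH the ratio was 332 and 298 per 1000 against 175 and 153 in CC_l, 1.92-fold higher (exact p = 0.333). In HHC it was 21.7 and 200 per 1000, on both sides of CCC at 90.6 and 154. Of the 50-base words of Atp5g2, 38.3% also occur in other genes, among them processed copies, and 11.1% of those of Atp5g1 do, so the counts of both are less certain than those of Atp5g3, which has none.

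The subunits encoded in mitochondrial DNA took the opposite direction in HH. Their 13 genes made up 2.54% and 2.31% of counts in HH and 0.528% and 0.349% in CC_l, while the 82 nuclear members held 1.60% and 2.81% in HH and 4.73% and 5.66% in CC_l. All 13 were higher in both HH mice than in both CC_l mice, with a median log2 fold change of 2.48. Among the 21464 tested genes, 5651 were higher in both HH mice. None was a DEG, and 6 had a nominal p under 0.05 (17.4% of all genes did), with the lowest adjusted p at 0.242. In H the 13 genes held 1.78%, 2.26% and 2.00% of counts, inside the wide range of C at 9.45%, 6.24% and 0.546% (median log2 fold change -1.74). In HHC they held 0.251% and 0.518%, against 0.277% and 1.66% in CCC. Mitochondrial transcripts are read by ribosomes inside the organelle that carry no GFP tag, so their presence in a pulldown is not a measure of bound mRNA.

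**Figure D5:**
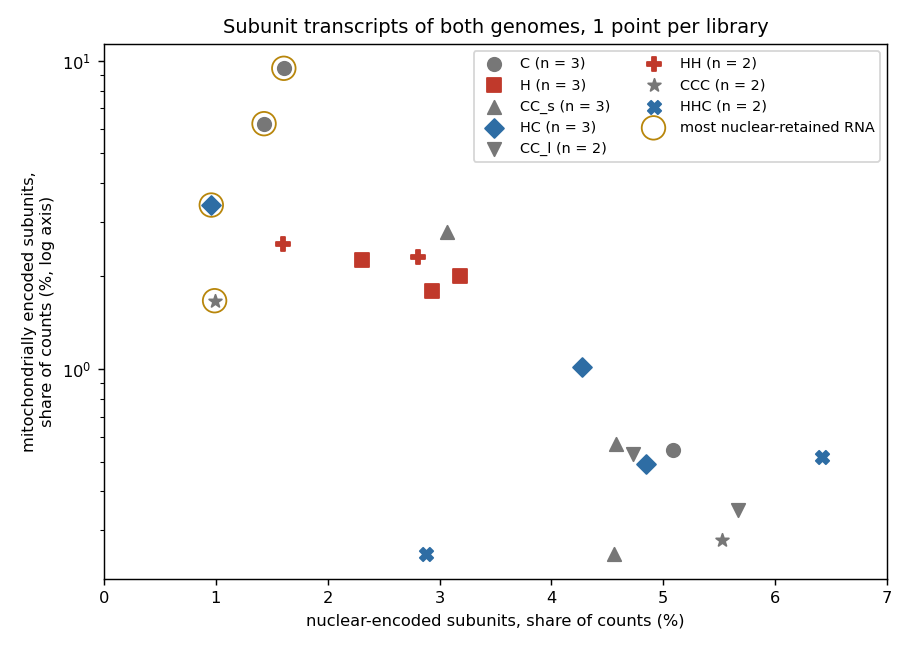
Share of counts (%) of the 13 mitochondrially encoded subunits (y axis, log) against that of the 82 nuclear members (x axis), 1 point per library, symbols for the 8 groups and rings for the 4 libraries with the most nuclear-retained RNA. The 5 HFD libraries lie at 1.60% to 3.18% on the x axis and 1.78% to 2.54% on the y axis, and the ringed libraries at 0.961% to 1.61% and 1.66% to 9.45%.

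Genes that serve the chain without being part of it were tested in the same fits. Of 18 electron carrier and coenzyme Q genes, none was a DEG in any of the 4 comparisons, and their medians were -0.37 in H, -0.16 in HC, -0.78 in HH and 0.28 in HHC. None of the 15 complex I assembly factors, the 10 of complexes II and III, the 20 of complex IV and the 4 of the ATP synthase list that were tested was a DEG either. In HH, 13 of 15, 10 of 10, 19 of 20 and 2 of 4 of them were below 0, with medians of -0.74, -0.60, -0.67 and -0.06. Of all tested genes, 57.3% were below 0 in HH. Among these carriers and assembly factors, 1 had an adjusted p under 0.05, in H, where 2.12% of all genes did. That was Ttc19, a complex III assembly factor (log2 fold change -0.98 ± 0.25, adjusted p = 0.048). It missed the DEG rule by its size.

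Of 13 regulators of respiratory genes, Ppargc1a and Ppargc1b, the coactivators that drive mitochondrial gene expression, were DEGs down in H. Among all tested genes, 2.92% were DEGs down there. Ppargc1a stood at 5.40, 3.21 and 3.26 CPM in H and 18.4, 21.9 and 11.5 CPM in C (log2 fold change -2.12 ± 0.47, adjusted p = 0.0264). Ppargc1b stood at 7.19, 5.08 and 8.83 CPM in H and 38.0, 42.8 and 17.8 CPM in C (-2.23 ± 0.59, adjusted p = 0.0581). For both, C 3 was the lowest of the C mice, the reverse of the order of the subunits. Without C 1, C 2, HC 3 and CCC 2, Ppargc1a had a log2 fold change of -1.42 and no longer passed the DEG rule. In HH, both genes were lower in both mice (-1.29 ± 0.56 and -1.14 ± 0.70), as was Esrra, a nuclear receptor that works with them (-1.42 ± 0.62, adjusted p = 0.249). Pprc1, a related coactivator, was a DEG down in HHC (12.9 and 4.42 CPM against 30.4 and 19.5 CPM, -1.53 ± 0.45, adjusted p = 0.276). Among all tested genes, 2.67% were DEGs down in HHC. Nrf1 and Gabpa, the DNA-binding factors named above, and Tfam, a transcription factor of mitochondrial DNA, were no DEGs in any comparison. In HH their log2 fold changes were 0.14 ± 0.42, 0.82 ± 0.33 and -0.995 ± 0.52.

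The muscle and brown fat isoforms Cox7a1 and Cox8b are not among the members, and neither was a DEG in HHC. Cox8b stood at 241 and 90.5 CPM in HHC and at 41.8 and 6.04 CPM in CCC (log2 fold change 2.79 ± 1.32, adjusted p = 0.468), and Cox7a1 at 45.0 and 54.3 CPM against 26.9 and 2.31 CPM (1.77 ± 1.06). Both were higher in both HHC mice, including HHC 1, which had the lower share of members.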

How the data were processed

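TRAP–seq libraries of 20 mice in 8 groups were analysed. Per the submitters' processing notes, reads were checked with FastQC 0.11.9, trimmed with Trim Galore 0.6.6, aligned to mm10 with HISAT2 2.2.1 and assigned to genes with featureCounts (Subread 2.0.1). The authors deposited unnormalized whole-number counts per gene and mouse. Annotation, strand setting and pair handling of the counting were not given in the sources used here, and 74.5% to 89.2% of nonzero counts per library were even. Symbols, positions and overlaps came from GENCODE vM21 (45229 genes matched). Counts were filtered (filterByExpr), TMM-normalized and fitted with edgeR 4.0.16 in R 4.3.3 (quasi-likelihood, all 20 libraries in 8 groups, no covariates), with Benjamini-Hochberg adjustment over 21464 genes. SEs were derived from F. CPM of genes are TMM-scaled, while summed marker CPM and shares are of total counts. Isoform ratios were tested by exact permutation. Of 94 genes with a matching symbol, 10 pseudogenes and the 2 excluded genes were dropped. Members, marker and pathway lists and tests were chosen with earlier results of these data known, and the mural list after the values were seen. Named genes were member DEGs, the 2 highest per length in each complex, the 3 lowest nominal p per direction and comparison, isoform sets, catalytic subunits, pathway DEGs and 6 regulators, and others, such as members with or without overlap, were named after their values were seen. Alternatives were DESeq2 1.42.0, RLE, library size only, the likelihood ratio test, no filter, only the compared groups, halved counts, a replicate block, an adjusted p threshold and each mouse left out. The fit was tested on simulated data. The labels call replicates individual biological replicates. Limits of 3 counts cover counting error only.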

Additional observations from a re-analysis of the deposited data

How the results depend on the processing

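The median fold change of the members in HH stayed below 0 under the 7 other planned settings (-1.29 to -1.17) and without each mouse in turn (-1.75 to -0.93). In H it was -0.29 to 0.08 by setting, above 0 only with scaling by library size alone, and -0.61 to 0.93 without each mouse, above 0 only without C 3. In HC it was -0.25 to -0.09 and -0.71 to 0.26, above 0 only without HC 3. In HHC it was 0.48 to 0.75 and -0.41 to 2.69, below 0 without CCC 2 (-0.16) or HHC 2 (-0.41). Without the 4 libraries rich in nuclear-retained RNA (chosen after seeing the data) the medians were -1.06 in H, and, with the sign turned, 0.21 in HC and -0.08 in HHC, and 26 members in H, 27 in HH and 0 in HC were DEGs (8.51%, 10.8% and 1.05% of all genes). With that RNA as a covariate, also chosen after seeing the data, the medians were -1.08 in H, -1.83 in HH and -0.01 in HHC, and the DEGs were 17 in H, 2 in HC and 52 in HH, of which 15, 2 and 50 were down, where 4.38%, 0.545% and 6.66% of all genes were. With no filter on low counts member DEGs numbered 9 for HH, 3 for HC and 2 for HHC (8.36%, 5.12% and 3.68% of all genes), and 3 members in the short arm and 5 in the long arm passed the interaction (4.07% and 3.68%). Fitting only the compared groups gave 7 DEGs in HH and 0 in HC (10.7% and 1.52% of all genes). Halved counts gave 0 in HC (1.54%), and the likelihood ratio test gave 1 in HHC (5.54%). In the long-arm interaction the likelihood ratio test passed 2 members (4.48% of all genes) and DESeq2 3 (5.78%). At an adjusted p under 0.05 HC and HH had 0 (0% and 2.07% of all genes). Leaving out 1 mouse gave 2 to 3 member DEGs for H, where 3.55% to 8.48% of all genes were DEGs. For HC it gave 0 to 1 (0 without HC 3 or any CC_s mouse), where 0.744% to 2.79% were. In the long arm a left-out mouse leaves 1 in its group, so for HH and HHC only the medians above are given here. The causes of these changes were not tested. With the replicate number as a block, HC had 0 member DEGs, H 2 and HH 2 (0.95%, 4.81% and 4.85% of all genes). The medians were then -0.14 for H, -0.09 for HC, -1.28 for HH and 0.49 for HHC. The labels give no pairing, and same-numbered mice deviated with correlations of -0.28 to 0.19, so the numbers were not taken as pairs. By the nominal DEG rule, the calls of Cox4i2 and Ndufa4l2 in H held under the 16 alternatives run for each. When any 1 C or H mouse was left out, no member had an adjusted p under 0.05 in H (0.356% to 2.72% of all genes did). The same was true with library size only (1.9%) and with the replicate block (0.815%). The calls of Cox6a2 in H and Cox6b2 in HC were each lost under 9 of 16. That of Cox6b2 in HH was lost under 5 of 14, and those of Ndufa4l2 and Cox4i2 in HH under 4 and 2 of 14. Depth limits the alternative isoforms, some of which had 0 counts in several libraries, more than the other subunits.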
